A study of Mus musculus with 6 samples.

Results

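The carbonic anhydrase family was examined in myometrium (uterine smooth muscle) of late-pregnant mice with and without TCF23, a basic helix-loop-helix protein. The members are the 10 genes Car2, Car3, Car4, Car5b, Car8, Car9, Car11, Car12, Car13 and Car14, found by symbol among 55055 genes. All 10 had enough counts to be tested (19599 genes in all). The family was chosen by the knockout against wild-type difference of Car4, which an earlier fit of these same libraries had called higher in knockout. The same contrast in the members is therefore a description, and no p-value is attached to it. Poly(A)-selected RNA of 3 wild-type animals (TCF23 WT) and 3 animals carrying a CRISPR/Cas9 knockout of the gene (TCF23 KO) was sequenced, 1 library per animal. All were pregnant, at E19.5 in the sample labels and gestational day 19 in the series design. For strain, age of the dams, allele and number of knockout lines, no label or design text gives an entry. Libraries are named by genotype and replicate number.

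Carbonic anhydrases interconvert carbon dioxide and bicarbonate, releasing or taking up a proton, and so bear on how fast a tissue moves acid and carbon dioxide. Most isoforms hold a zinc ion in the active site through 3 histidines. They differ mainly in where they sit: Car2, Car3 and Car13 are cytosolic, Car5b is mitochondrial, Car4 is tied to the outer face of the membrane by a lipid anchor, and Car9, Car12 and Car14 cross the membrane with the catalytic domain outside. Car8 and Car11 are carbonic anhydrase-related proteins with no catalytic activity. In the uterus, the extracellular and cytosolic forms are best known from the epithelium and its secretions, and in other tissues Car4 also marks some capillaries.

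Coding sequence around the first and second zinc-binding positions is shown for 6 members because it separates catalytic members from Car11, a related protein. Each stretch runs 5′ to 3′ in the longest annotated coding transcript (GENCODE M21), and the capitals mark the codons that align with the zinc-binding histidine codons of Car2.
Car4: cagttgCACctgCACtggtca
Car9: cagttgCATctaCACtgggga
Car12: cagctgCACttgCACtggggg
Car14: cagctcCACctgCACtggggt
Car5b: cagtttCATtttCATtgggga
Car11: gaactgCGCctgCTAtttgga
In Car4, Car9, Car12, Car14 and Car5b both marked codons, and the third zinc-binding codon further on, were CAC or CAT, which encode histidine. In Car11 none of the 3 was a histidine codon (CGC, CTA and, at the third, CAG).

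The promoter of Car4 is shown because Car4 had the largest positive log2 change in the family. The window (RefSeq, GRCm38.p6, chr11:84957504-84957803, plus strand) runs from 250 bases before to 50 bases after the RefSeq start. The promoter of Car9 (chr4:43506776-43507075, plus strand) is shown beside it because Car9 is a textbook target of the hypoxia-inducible factors. Capitals mark the hypoxia-response core ACGTG (written CACGT where it lies on the minus strand) in both and TATAAA in Car4.
Car4: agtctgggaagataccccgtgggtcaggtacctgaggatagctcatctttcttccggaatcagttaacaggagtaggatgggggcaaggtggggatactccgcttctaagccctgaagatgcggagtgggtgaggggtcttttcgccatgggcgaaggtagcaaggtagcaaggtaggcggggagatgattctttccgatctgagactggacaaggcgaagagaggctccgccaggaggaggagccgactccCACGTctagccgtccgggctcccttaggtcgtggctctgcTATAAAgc
Car9: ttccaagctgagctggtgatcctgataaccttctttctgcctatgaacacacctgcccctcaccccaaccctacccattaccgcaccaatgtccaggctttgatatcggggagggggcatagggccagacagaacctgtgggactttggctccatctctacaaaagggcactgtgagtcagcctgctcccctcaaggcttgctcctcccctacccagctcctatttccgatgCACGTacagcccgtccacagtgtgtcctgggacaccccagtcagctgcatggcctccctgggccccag
The Car4 window held 0 matches to CANNTG, the hexamer that many basic helix-loop-helix proteins are known to bind. Whether TCF23 itself binds it was not tested. The window also held 1 match to ACGTG, on the minus strand, and 1 to TATAAA. These start 2 and 42 bases after the RefSeq start, in that order. A match says nothing of binding, and the lack of one only that these letters are not in this window. Searched on both strands in 32851 RefSeq windows of 300 bases, the 3 motifs were present in 72.3%, 19.6% and 13.6% in that order. The Car9 window held 1 match to ACGTG, on the minus strand, starting 18 bases before the RefSeq start, and 2 to CANNTG. The RefSeq start differs from the gene start in the deposited table, printed with each gene, which lies further upstream for Car9 and further downstream for Car4. Windows were matched for 6 members, and of the others Car11 (in each of its 2 windows), Car14 and Car5b held at least 1 CANNTG and Car12 held 0. CAGCTG, which is one form of CANNTG, was present in 16.3% of all windows, in that of Car9 and in 1 of the 2 of Car11, and is counted within CANNTG above.

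Total counts per library ran from 39939686 to 65036402. Tcf23 had 4203, 5970 and 3360 counts in wild-type replicates 1, 2 and 3 and 0, 2 and 1 in knockout replicates 1, 2 and 3, so the labels matched in 6 of 6 libraries. All 10 smooth muscle markers were detected, with summed counts per 1000000 (CPM) of 27797 to 33021 in wild-type and 15883 to 40426 in knockout, lowest in knockout replicate 3. The 12 epithelial markers were also detected and summed to 2151, 1432 and 3092 CPM in wild-type replicates 1, 2 and 3 and to 2327, 863 and 4008 in knockout replicates 1, 2 and 3. The summed mesothelial markers, of the outer lining of the uterus, were highest in wild-type replicates 1 and 2. The 8 neutrophil markers summed to 6.71 to 10.9 CPM in wild-type and 19.8 to 31.8 CPM in knockout. For 6 of them, including Retnlg, which had too few counts to be tested, each knockout library was above each wild-type library. Of all genes tested, 7.22% showed this. Placental markers were highest in knockout replicate 1 (397 CPM, against 51.5 or less in each other library).

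Car4, the membrane-anchored extracellular enzyme, had the largest positive log2 change of the 10 members. The gene (ENSMUSG00000000805, mm10 chromosome 11, 84957788 to 84966044, plus strand) overlaps no other annotated gene. Its level was 13.1, 10.4 and 23.2 CPM in wild-type replicates 1, 2 and 3 and 84.6, 45.2 and 109 CPM in knockout replicates 1, 2 and 3. Each knockout library was above each wild-type library, and the lowest knockout value lay well above the highest wild-type one. The means were 15.6 ± 6.75 and 79.6 ± 32.3 CPM (SD, n = 3 each), a fitted 5.12-fold difference (log2 2.36 ± 0.40 SE). With libraries taken by replicate number, the knockout to wild-type ratio was 6.48, 4.34 and 4.71 for numbers 1, 2 and 3. With any 1 library left out the log2 change stayed between 2.06 and 2.76.

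Of the 10 members, 0 passed an adjusted p under 0.05 in edgeR's quasi-likelihood test over all genes, where 0.0204% of genes did (0.0204% lower and 0% higher). Of all genes 8.56% (1678) had an unadjusted p under 0.05, and DESeq2 called 2.01% of 19173. With the replicate number as a block, Car4 was 1 of the 2 genes called higher (0.0102% of 19599, with 0.0255% lower and 0.0357% in either direction). DESeq2 called Car4 and Car14 higher and Car3 lower, where 1.29% and 0.720% of genes were called in those directions. Groups did not overlap for 2 members with knockout above (Car4 and Car14, against 7.22% of all genes tested) and 1 with knockout below (Car12, against 7.01%). A log2 change as large as that of Car4 or larger was seen in 0.388% of genes. A log2 change of at least 1 in either direction was seen in 3 members (Car3, Car4 and Car14) and in 5.43% of genes. These shares include the comparison on which the family was chosen, so they carry no weight for it. Of the 10 log2 changes, 6 were positive and 4 negative, with a median of 0.16 against 0.01 over all genes tested. In bulk tissue, a different number of cells of a type and a different amount of RNA per cell cannot be told apart.

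**Figure D1:**
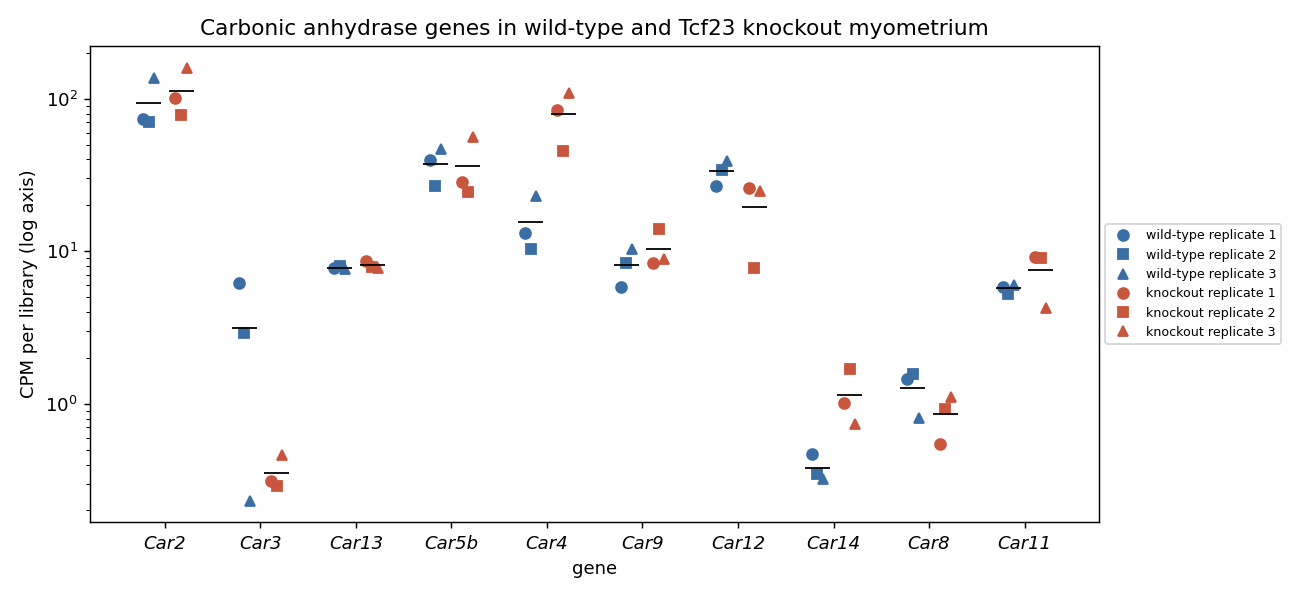
CPM of the 10 carbonic anhydrase genes in each library (log axis), wild-type in blue and knockout in red, with the symbol giving the replicate number and the bar the group mean (n = 3). For Car4 and Car14 all knockout points lie above all wild-type points, and for Car12 below them.

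The level of Car4 also followed the epithelial marker sum within each genotype. In both groups replicate 2 was lowest and replicate 3 highest for Car4, for Car2, for Car5b and for the 12 epithelial markers together. Car4 was also taken relative to that sum. It stood at 6.07, 7.27 and 7.50 CPM per 1000 CPM of epithelial markers in wild-type replicates 1, 2 and 3. In knockout replicates 1, 2 and 3 it stood at 36.3, 52.3 and 27.2. The groups did not overlap on this scale, and the ratio of the means was 5.56. Relative to the 12 endothelial markers, Car4 stood at 13.6 to 33.3 per 1000 CPM in wild-type and 44.5 to 203 in knockout, again without overlap. Endothelial markers themselves summed to 696 to 872 CPM in wild-type and 539 to 1014 in knockout, with 0 of 12 separating the genotypes. The epithelial and endothelial sums each overlapped between genotypes, so dividing by them could hardly remove the Car4 difference. These ratios were formed after the values had been seen, and which cells carry the RNA was not tested. The neutrophil sum, in contrast, did separate the genotypes. It was 8.04, 10.9 and 6.71 CPM in wild-type replicates 1, 2 and 3. In knockout replicates 1, 2 and 3 it was 31.8, 20.9 and 19.8 CPM. Car4 was not taken relative to the neutrophil sum, and the part of neutrophils in the Car4 values was not tested.

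**Figure D2:**
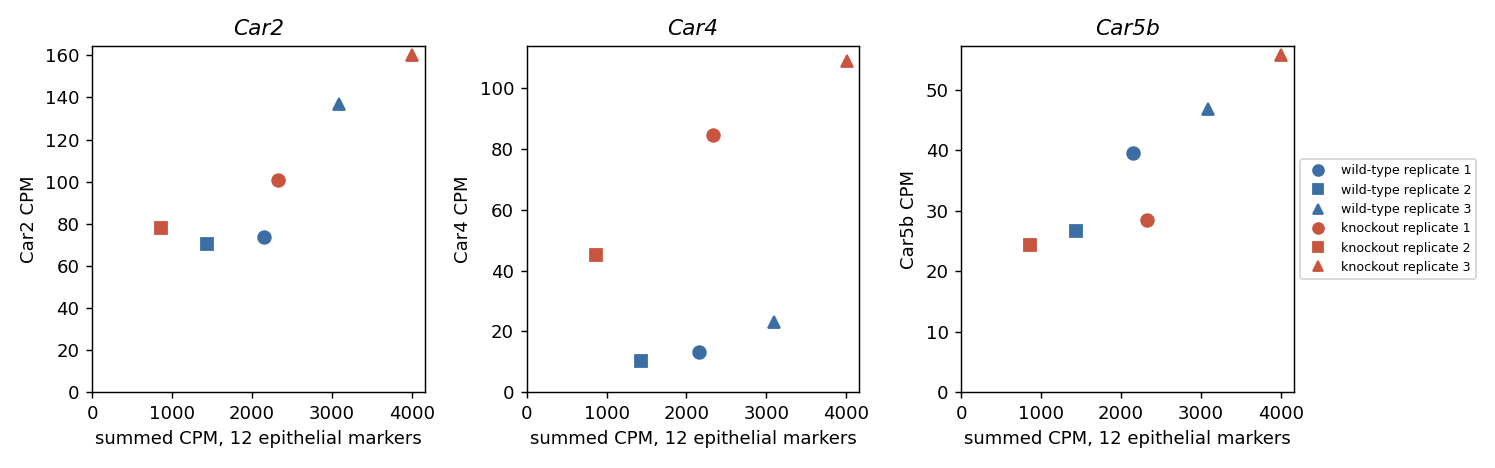
Car2, Car4 and Car5b (CPM, vertical axes) against the summed CPM of 12 epithelial markers (horizontal axes), 1 point per library, symbols as replicate numbers. Wild-type and knockout points of Car4 lie on separate levels (up to 23.2 CPM in wild-type, 45.2 and above in knockout), while those of Car2 and Car5b are mixed.

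The 3 transmembrane enzymes with an extracellular catalytic domain went different ways. Car14 (ENSMUSG00000038526, chromosome 3, 95897768 to 95904691, minus strand) was a low-level gene with 22, 18 and 18 counts in wild-type replicates 1, 2 and 3 and 65, 93 and 30 in knockout replicates 1, 2 and 3. As CPM these were 0.472, 0.347 and 0.321 against 1.01, 1.68 and 0.732, with no overlap, a fitted 3.01-fold difference (log2 1.59 ± 0.39 SE). Knockout replicate 2 was the highest library, and without it the log2 change was 1.21. By replicate number the knockout to wild-type ratio was 2.14, 4.83 and 2.28 for numbers 1, 2 and 3. Its counts are uncertain, since Aph1a, a gamma-secretase subunit gene on the other strand, shares 445 exonic bases with it and had 20352 counts in all, against 246 for Car14. Aph1a itself was at 66.1 to 67.7 CPM in wild-type and 59.0 to 69.3 in knockout (log2 −0.09 ± 0.12).

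Car12 (ENSMUSG00000032373, chromosome 9, 66713686 to 66766845, plus strand), an epithelial enzyme, was at 26.7, 34.3 and 39.1 CPM in wild-type replicates 1, 2 and 3 and at 25.9, 7.75 and 24.8 CPM in knockout replicates 1, 2 and 3. The groups did not overlap, but wild-type replicate 1 and knockout replicate 1 were nearly level, and knockout replicate 2 was far below the rest. The log2 change was −0.78 ± 0.42 SE, and −0.39 without knockout replicate 2, the library with the lowest epithelial sum. Car12 did not otherwise follow that sum. In wild-type Car12 was lowest in replicate 1 and the sum in replicate 2. In knockout Car12 was highest in replicate 1 and the sum in replicate 3. Per 1000 CPM of epithelial markers Car12 stood at 12.4 to 24.0 in wild-type and 6.19 to 11.1 in knockout.

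Car9 (ENSMUSG00000028463, chromosome 4, 43506966 to 43513729, plus strand), the hypoxia-responsive tumour-associated form, was at 5.79, 8.38 and 10.4 CPM in wild-type replicates 1, 2 and 3 and 8.42, 14.0 and 8.85 CPM in knockout replicates 1, 2 and 3. Groups overlapped, and the log2 change of 0.35 ± 0.28 SE was close to its error. The antisense gene Gm12454 shares 214 exonic bases with Car9 and had 1142 counts in all, against 2966 for Car9, and how many reads were assigned to the wrong one of the pair was not tested. Gm12454 had a log2 change of 0.58 ± 0.34.

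Among the cytosolic enzymes, Car2 was the most abundant and showed overlapping groups. Car2 (ENSMUSG00000027562, chromosome 3, 14886273 to 14900770, plus strand), the fast and widely expressed isoform, was at 73.7, 70.5 and 137 CPM in wild-type replicates 1, 2 and 3 and 101, 78.0 and 160 CPM in knockout replicates 1, 2 and 3. The libraries numbered 3 were the highest in both genotypes, and the spread within a genotype (1.95-fold and 2.04-fold from lowest to highest) exceeded the fitted difference of 1.20-fold (log2 0.27 ± 0.34 SE). By replicate number the knockout library was higher in 3 of 3 pairs, by 1.38, 1.11 and 1.16-fold for numbers 1, 2 and 3, and with the replicate block the log2 change was 0.27 ± 0.13 SE. With 1 library left out the log2 change lay between −0.07 and 0.64. Car13 (ENSMUSG00000027555, chromosome 3, 14641727 to 14663002, plus strand) was the steadiest member: 7.72, 7.96 and 7.64 CPM in wild-type and 8.63, 7.90 and 7.73 CPM in knockout, in replicate order, with a log2 change of 0.06 ± 0.15 SE.

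Car3, a cytosolic enzyme with low catalytic activity known from skeletal muscle and fat, was high in 2 wild-type libraries only. The gene (ENSMUSG00000027559, chromosome 3, 14863538 to 14872523, plus strand) was at 6.24, 2.91 and 0.232 CPM in wild-type replicates 1, 2 and 3 (291, 151 and 13 counts). In knockout replicates 1, 2 and 3 it was at 0.311, 0.288 and 0.463 CPM (20, 16 and 19 counts). Wild-type replicate 3 was the lowest of all 6 libraries, so the genotypes overlapped although the fitted log2 change was −3.15 ± 0.98 SE. Without both wild-type replicates 1 and 2, an alternative chosen after seeing the data that leaves 1 wild-type library, the log2 change was 0.60 ± 0.71.

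The 2 wild-type libraries with Car3 were also those with the most mesothelial RNA. Of 8 mesothelial markers, 6 (Upk3b, Lrrn4, Upk1b, Gpm6a, Bnc1 and Muc16) were highest in wild-type replicate 1 and next highest in wild-type replicate 2, as was Car3. Among the knockout libraries the sum had the reverse order of Car3. Car3 was highest in replicate 3 and lowest in replicate 2, and the mesothelial sum was highest in replicate 2 and lowest in replicate 3. The largest part of that sum was Wt1, at 53.7, 77.6 and 41.1 CPM in knockout replicates 1, 2 and 3. Upk3b, Lrrn4, Upk1b and Muc16 were highest in knockout replicate 3, as was Car3, but lowest in replicate 1. Gpm6a, Bnc1 and Wt1 were highest in knockout replicate 2 and Msln in knockout replicate 1. Per 1000 CPM of mesothelial markers Car3 stood at 21.9, 17.6 and 1.67 in wild-type replicates 1, 2 and 3 and at 3.36, 2.60 and 6.09 in knockout replicates 1, 2 and 3, so the ratio to the whole list was not constant between libraries. In wild-type replicate 3 most of the marker sum came from Msln (64.0 CPM) and Wt1 (63.9 CPM). The ratio in that library therefore mainly sets Car3 against these genes. Upk1b, a uroplakin gene, was at 15.0, 5.65 and 0.321 CPM in wild-type replicates 1, 2 and 3 and at 0.435, 0.721 and 0.829 CPM in knockout replicates 1, 2 and 3. The whole list summed to 284, 166 and 139 CPM in wild-type and 92.6, 111 and 76.1 CPM in knockout. The other 2, Msln and Wt1, did not follow the order of Car3, and Msln was at 73.4, 41.7 and 64.0 CPM in wild-type and 28.1, 14.0 and 17.7 CPM in knockout. The summed fat and skeletal muscle markers did not have their highest values in wild-type replicate 1. Of 10 adipocyte markers, 6 (Adipoq, Plin1, Cfd, Retn, Lep and Cidec) were under 0.1 CPM in each library. The other 4, Pck1 (6.73 to 43.0 CPM), Lipe (14.2 to 24.9), Fabp4 (5.22 to 12.5) and Thrsp (2.39 to 4.47), were detected in all. The adipocyte list summed to 51.6, 56.5 and 73.8 CPM in wild-type replicates 1, 2 and 3. In knockout replicates 1, 2 and 3 it summed to 44.8, 38.7 and 46.7 CPM, below each wild-type library. Its order of replicates was that of Car3 in knockout and the reverse of Car3 in wild-type. Skeletal muscle markers summed to 36.4 to 68.6 CPM in wild-type and 57.3 to 171 CPM in knockout. The part of mesothelium, fat or skeletal muscle in the Car3 values was not tested.

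**Figure D3:**
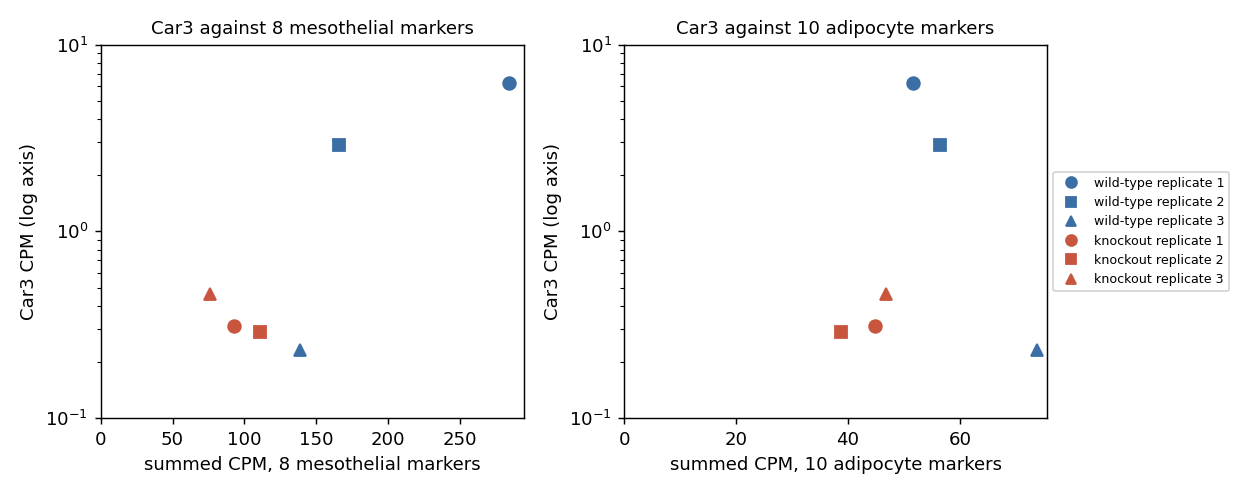
Car3 (CPM, log axis) against the summed CPM of 8 mesothelial markers (left) and of 10 adipocyte markers (right), 1 point per library, symbols as replicate numbers. The 2 wild-type libraries with Car3 at 2.91 and 6.24 CPM have the highest mesothelial sums (166 and 284), and the other 4 libraries lie between 0.232 and 0.463 CPM.

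Genes whose pattern was most like that of Car3 or Car4 were then sought. Across 15045 other genes with a mean of at least 1 CPM, those most like Car3 by Pearson's r of log2 CPM over the 6 libraries were Upk1b (0.991), Upk3b (0.986), Lrrn4 (0.973), Trim12a (0.970) and Capza2 (0.965), of which the first 3 are on the mesothelial list. For Car4 the 5 most alike were Hps4 (0.983), Tap1 (0.982), Fndc5 (0.979), Cryab (0.978) and Krt80 (0.977). For all 5 the lowest knockout value lay above the highest wild-type one, with log2 changes of 0.25, 0.44, 1.01, 0.46 and 0.91, smaller than that of Car4. These coefficients describe 6 libraries in 2 genotypes and are given without a test.

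Car2, Car3 and Car13 lie side by side with Car1 on chromosome 3, in a cluster of 259 kb (14641727 to 14900770), and did not move together. Car3 ends 13.7 kb before Car2 begins. Wild-type replicate 3 had the lowest Car3 value of its genotype and the highest Car2 value, while Car13 hardly varied. Car1, the red cell isoform, had 0 counts in each of the 6 libraries. That allows up to 3 counts per library, or 0.0461 to 0.0751 CPM on total counts, without the scaling used for the other CPM. Erythroid markers were present at 51.4 to 107 CPM in wild-type and 75.6 to 283 CPM in knockout.

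None of the genes tested next to Car4 on chromosome 11 had a log2 change of the size of that of Car4. Within 250000 bases on either side, a window chosen after the values were seen, 9 other genes were tested. Of these 0 passed in edgeR, where only 0.0204% of all genes did. Their log2 changes ran from −0.21 to 0.40, with 7 negative and 2 positive. The nearest was Usp32, a ubiquitin protease gene on the minus strand whose nearer end lies 18398 bases beyond Car4. It was at 66.4, 64.8 and 63.7 CPM in wild-type and 37.7, 64.5 and 65.8 CPM in knockout replicates 1, 2 and 3 (log2 −0.21 ± 0.21, edgeR adjusted p = 0.888). Znhit3, the nearest tested gene on the other side, had a log2 change of −0.13 ± 0.19.

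Car5b, the mitochondrial enzyme that supplies bicarbonate to carboxylation reactions, had overlapping groups with means of 37.6 and 36.2 CPM in wild-type and knockout. The gene (ENSMUSG00000031373, chromosome X, 163976822 to 164027997, minus strand) was at 39.5, 26.6 and 46.8 CPM in wild-type replicates 1, 2 and 3 and 28.4, 24.4 and 55.7 CPM in knockout replicates 1, 2 and 3. The log2 change was −0.06 ± 0.34 SE, and its sign turned without some single libraries (−0.51 to 0.16). Knockout replicate 3 was the highest library for Car5b, as it was for Car2 and Car4.

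The carbonic anhydrase-related genes had overlapping groups. Car8 (ENSMUSG00000041261, chromosome 4, 8143362 to 8239041, minus strand), which encodes a regulator of the inositol trisphosphate receptor in neurons, was at 1.46, 1.56 and 0.803 CPM in wild-type and 0.544, 0.920 and 1.10 CPM in knockout, in replicate order (log2 −0.58 ± 0.38 SE). Car11 (ENSMUSG00000003273, chromosome 7, 45699843 to 45704682, plus strand), a secreted related protein, was at 5.85, 5.26 and 6.05 CPM in wild-type and 9.19, 9.07 and 4.24 CPM in knockout, in replicate order. Knockout replicates 1 and 2 lay above the narrow wild-type range and knockout replicate 3 below it, and the log2 change was 0.39 ± 0.30 SE.

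**Figure D4:**
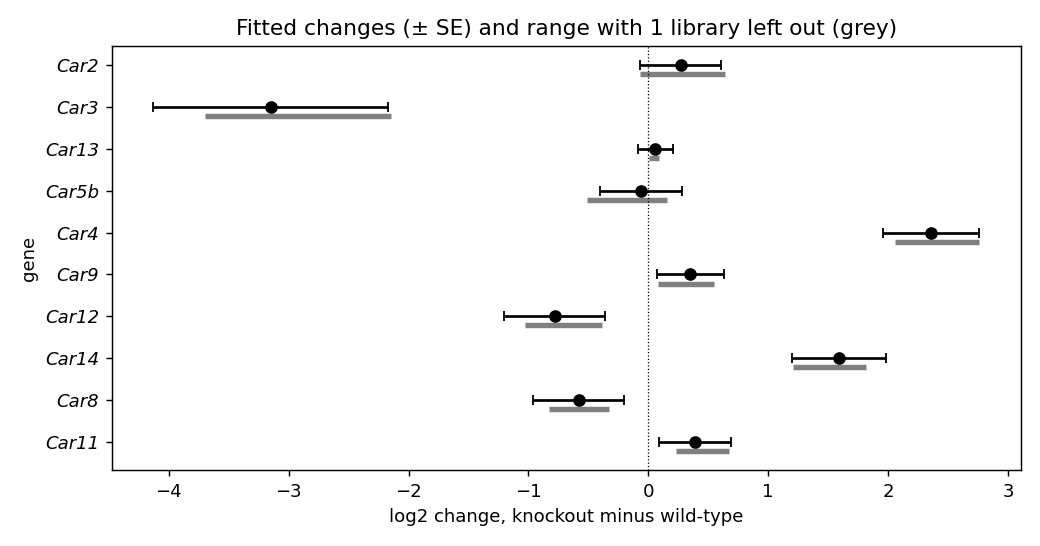
Fitted log2 change of each member, knockout minus wild-type (horizontal axis), as a point with its SE, and the range of the change with each single library left out in turn as a grey bar. The bars of Car4 (2.06 to 2.76) and Car14 (1.21 to 1.82) stay above 0 and that of Car3 (−3.70 to −2.15) below it, while those of Car2 and Car5b cross it.

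On a scale that allows genes to be compared, CPM per kilobase of exon (RPKM), Car2 was the most abundant member in wild-type myometrium at 38.7 ± 15.5 (SD, n = 3). Car4 followed at 7.91 ± 3.43, then Car5b at 5.92 ± 1.61, Car12 at 4.40 ± 0.827, Car9 at 3.55 ± 0.996, Car13 at 3.38 ± 0.0730 and Car11 at 2.97 ± 0.213. Car3 (1.09 ± 1.05), Car8 (0.331 ± 0.107) and Car14 (0.149 ± 0.0316) came last. Neighbours in this order from Car4 to Car13 overlapped in their ranges over the 3 wild-type libraries, as did Car3 and Car8, while Car2 did not overlap with Car4 (29.1 to 56.7 against 5.29 to 11.8 RPKM). In knockout myometrium Car4, at 40.5 ± 16.4 RPKM, came near Car2, at 46.6 ± 17.3 RPKM, and their ranges overlapped (23.0 to 55.5 and 32.2 to 65.9 RPKM). Car12 was the fourth in wild-type and the seventh in knockout.

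Car4 made up 11.4, 9.71 and 12.8% of the summed RPKM of the 10 genes in wild-type replicates 1, 2 and 3 and 40.8, 30.5 and 38.7% in knockout replicates 1, 2 and 3. The share of Car2 was 52.1, 53.4 and 61.3% in wild-type and 39.6, 42.8 and 45.9% in knockout. The summed RPKM of the family was 58.4, 54.5 and 92.3 in wild-type and 106, 75.3 and 144 in knockout, with overlapping groups. Without Car4 the mean sums were 60.5 and 67.6.

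**Figure D5:**
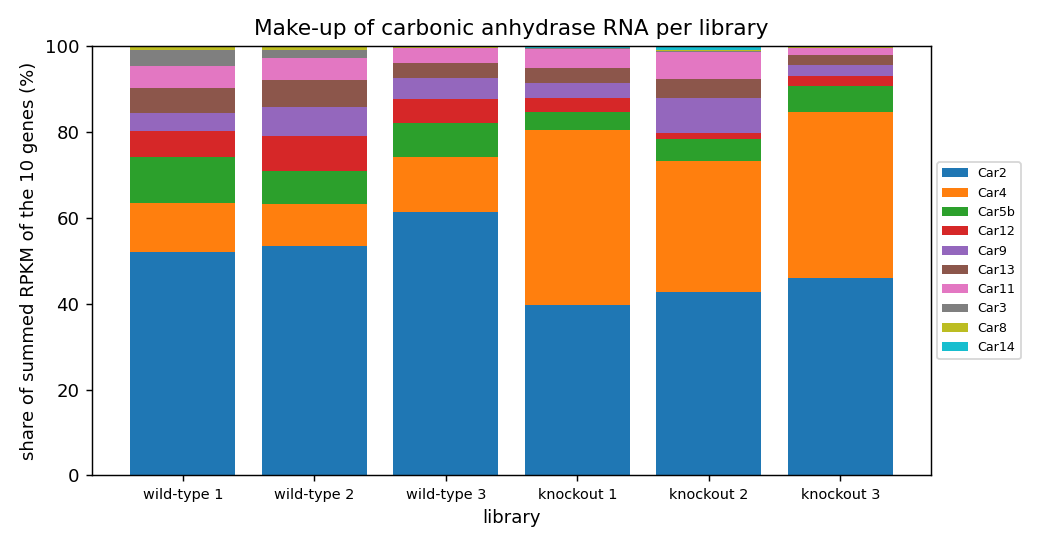
Share of each gene in the summed RPKM of the 10 carbonic anhydrase genes (vertical axis, %), 1 bar per library. The share of Car4 was 9.71 to 12.8% in wild-type and 30.5 to 40.8% in knockout libraries.

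The carbonic anhydrases and relatives outside the 10 members were low or overlapped. Of 8 such genes 4 were tested, and 0 passed in either direction (0 at an unadjusted p under 0.05 and 0 with DESeq2). Over all genes these shares were 0.0204%, 8.56% and 2.01% in that order. Car7, a cytosolic form known from the brain, had means of 1.14 and 1.47 CPM in wild-type and knockout, and Car15, another membrane-anchored form, 1.83 and 2.31 CPM (edgeR adjusted p = 0.840 and 0.787, with no overlap between genotypes for Car15). Ptprg and Ptprz1, receptor phosphatases with a carbonic anhydrase-like domain, had log2 changes of −0.17 ± 0.22 and −0.50 ± 1.00, and Ptprz1 ranged from 4.19 to 55.6 CPM across libraries. Car5a, Car6 and Car10 stayed under 0.2 CPM in each library.

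Bicarbonate transporters, which carry the ion that these enzymes make, did not pass as single genes. Of 15 tested (17 listed), 7 had positive and 8 negative log2 changes, with a median of −0.07. In edgeR 0 passed, where only 0.0204% of all genes did, so a count of 0 says little of a list this short. An unadjusted p under 0.05 (8.56% of all genes) was found for 2 with a positive change and 0 with a negative one. DESeq2 called 1 higher (1.29% of all genes). Of those 2, one was Slc4a1, the red cell anion exchanger and an erythroid marker, named after its values were seen, at 0.107 to 0.161 CPM in wild-type and 0.219 to 0.684 CPM in knockout (log2 1.78 ± 0.49, edgeR adjusted p = 0.348). The other, called by DESeq2, was Slc4a5, a sodium bicarbonate cotransporter gene, at 2.51, 3.26 and 3.87 CPM in wild-type replicates 1, 2 and 3 and 4.71, 9.50 and 7.83 CPM in knockout replicates 1, 2 and 3. Its groups did not overlap (log2 1.19 ± 0.30, edgeR adjusted p = 0.322, DESeq2 adjusted p = 0.0165). Slc4a7, another sodium bicarbonate cotransporter gene, was at 82.3 ± 1.18 CPM in wild-type and 59.5 ± 18.7 in knockout (edgeR adjusted p = 0.611), and Slc4a8 at 10.3 ± 2.68 and 14.5 ± 3.61 CPM (edgeR adjusted p = 0.689). Of the 15, 3 had every knockout library above every wild-type one and 1, Slc4a7, below, against 7.22% and 7.01% of all genes tested.

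Of 16 tested proton exchanger and lactate carrier genes, 10 had positive and 6 negative log2 changes (median 0.06). In edgeR 0 passed (0.0204% of all genes did). An unadjusted p under 0.05 (8.56% of all genes) was found for 2, both positive, and DESeq2 called 1 higher (1.29% of all genes). Slc9a2, a sodium/proton exchanger gene of epithelia, was at 0.429, 0.154 and 0.696 CPM in wild-type replicates 1, 2 and 3 and 1.15, 2.29 and 2.51 CPM in knockout replicates 1, 2 and 3. Every knockout library was above every wild-type one (log2 2.20 ± 0.55, edgeR adjusted p = 0.307, DESeq2 adjusted p = 0.00619). The lactate carriers differed in sign: Slc16a1 was at 149 ± 16.7 and 115 ± 19.9 CPM and Slc16a3, the exporter of glycolytic cells, at 16.8 ± 3.94 and 29.5 ± 14.7 CPM in wild-type and knockout (edgeR adjusted p = 0.608 and 0.568). Of the 16, 3 had every knockout library above every wild-type one and 1, Slc16a1, below, against 7.22% and 7.01% of all genes tested.

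No subunit gene of the vacuolar proton pump and no gene of the enzymes that use or sense bicarbonate passed the test. Of all genes tested only 0.0204% passed it, so a count of 0 says little of lists this short. An unadjusted p under 0.05 was found for 8.56% of all genes, and DESeq2 called 2.01% of 19173. Of 21 tested pump subunit genes, 15 were positive and 6 negative (−0.24 to 0.44, median 0.06), with 0 passing, 0 at an unadjusted p under 0.05 and 0 with DESeq2. Its members with the smallest p were Atp6v0a4 (29.1 to 49.9 CPM in wild-type and 42.4 to 67.4 CPM in knockout), Atp6v0b (73.3 ± 9.07 and 89.5 ± 18.1 CPM) and Atp6ap1 (209 ± 14.0 and 238 ± 13.7 CPM). Of the 21, only Atp6ap1 had groups without overlap, with knockout above, against 7.22% of all genes tested. Of 9 tested genes of enzymes that use or sense bicarbonate, 7 were positive and 2 negative (−1.02 to 0.29, median 0.14), with 0 passing in edgeR or DESeq2 and 1, with a negative change, at an unadjusted p under 0.05. The latter was Adcy10, the bicarbonate-sensing soluble adenylyl cyclase gene, named after its values were seen, at 1.05, 1.08 and 0.892 CPM in wild-type replicates 1, 2 and 3 and 0.497, 0.523 and 0.463 CPM in knockout replicates 1, 2 and 3. Its groups did not overlap (log2 −1.02 ± 0.25, edgeR adjusted p = 0.312, DESeq2 adjusted p = 0.117). Pcx, the pyruvate carboxylase of mitochondria, was at 16.0 ± 1.06 and 17.8 ± 0.999 CPM.

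Hypoxia-response genes were examined beside Car9. All 20 were tested, and 14 were positive and 6 negative (median 0.14). In edgeR or DESeq2 0 passed, where 0.0204% and 2.01% of all genes did. At an unadjusted p under 0.05 (8.56% of all genes) stood 2 with a positive and 1 with a negative change. Those 3 did not share a direction: Egln3, an oxygen-sensing prolyl hydroxylase gene, was at 8.89 ± 0.229 and 14.3 ± 5.09 CPM in wild-type and knockout and Ankrd37 at 1.49 ± 0.338 and 2.46 ± 0.625 CPM, while Adm, the adrenomedullin gene, was at 22.7 ± 3.51 and 14.1 ± 2.30 CPM (edgeR adjusted p = 0.480, 0.553 and 0.325). For all 3 the genotypes did not overlap. Of the 20, 2 had every knockout library above every wild-type one and 2 below, against 7.22% and 7.01% of all genes tested. Knockout replicate 1 had the highest values of Egln3 and Ankrd37, but for Car9 the highest library was knockout replicate 2.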

How the data were processed

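Poly(A)-selected, directional RNA libraries of 3 wild-type and 3 knockout animals were used. For each library the authors deposited whole-number counts by Ensembl identifier. Their deposited normalized table holds a signal, which is the count multiplied by a library constant of 0.804 to 1.26, and also gave symbols and mm10 positions, with starts printed counting from 1. HISAT2 2.2.1, HTSeq 0.9.1, FastQC 0.73, DESeq2 2.11.40.7 and the build mm10 are listed in the submitters' processing notes, with no role or order. The use of strand in counting was not given in the sources used here.

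Counts were fitted in R 4.3.3 with edgeR 4.0.16 (filterByExpr, TMM, quasi-likelihood test, genotype as the term, Benjamini-Hochberg adjusted p under 0.05 over 19599 genes). A ± beside a log2 change is its SE, and all other ± are SD. CPM use TMM-scaled library sizes, and RPKM also the summed exon length in GENCODE M21, which held 54804 of 55055 identifiers. DESeq2 1.42.0 and limma 3.58.1 were alternatives. The pipeline was tested on simulated data. No library was a duplicate of another: chi-square over degrees of freedom was 36.8 to 240 between replicates. The floor given for Car1 covers counting error only, while each SE and SD also includes differences between animals.

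Replicate numbers come from the sample titles. Deviations from the group mean correlated at 0.147, 0.196 and 0.217 for libraries with the same number, each over 0.1, and at −0.223 to 0.061 for the others. The numbers were taken to pair the libraries as an assumption, since the labels do not say what links them. These correlations cannot show pairing, because deviations within a group of 3 sum to 0 and so depend on each other. The epithelial sum also had the same order of replicates in both genotypes. The main fit has no block.

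The members, gene lists and naming rule were chosen with earlier results of these data known. Named are all members, each gene of the remaining family, the 3 genes of each other list with the smallest p at a mean CPM of at least 1, the 5 genes most like Car4 and Car3, and markers whose sum moved with a member. Acacb and Cad fell under this rule with edgeR adjusted p of 0.777 and 0.833. Neighbours of Car4 were added later. Also tried were upper-quartile and RLE scaling, no filter, a filter of CPM of at least 1 in 3 libraries, limma-voom, limma on log2 of the deposited values plus 1, a threshold of 0.1 and leaving out each library.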

Additional observations from a re-analysis of the deposited data

How the results depend on the processing

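Against 0 genes higher and 4 lower in the main fit, the replicate block gave 2 and 5, upper-quartile scaling 4 and 8, no count filter 47 and 34, an adjusted p under 0.1 gave 7 and 10, and DESeq2 248 and 138. RLE scaling, the stricter count filter, limma-voom and limma on the deposited values each gave 0 and 4. With 1 library left out the counts were 0 to 3 higher (3 without knockout replicate 3) and 1 to 4 lower (1 without wild-type replicate 1, and 1 without wild-type replicate 2), and without both wild-type replicates 1 and 2, an alternative chosen after seeing the data, 0 and 1. Of the carbonic anhydrases, 0 were called in the main fit, and 1 (Car4, higher) was called with the block and with no count filter, and 2 higher (Car4 and Car14) and 1 lower (Car3) with DESeq2. Of the pathway and remaining family genes, 0 were called in the main fit and 2 higher with DESeq2 (Slc4a5 and Slc9a2). The block changed no other call among them. The log2 change of Car4 was 2.36 in the main fit, 2.34 to 2.39 over the other settings, 2.06 to 2.76 with 1 library left out and 1.78 without wild-type replicates 1 and 2, where the lone wild-type library is assumed to vary like the knockout ones. Without those 2 libraries Car2 had −0.28, Car3 0.60 and Car8 0.08. Counts of Car14 (18 to 93 per library) and Car3 (13 to 291) are low enough for counting error to matter. With 3 animals per genotype, an exact permutation test of 1 value cannot go below p = 0.10.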
